A study of Caenorhabditis elegans with 2 samples.

Results

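Peaks of the zinc finger protein ZFR-1 that lie away from the start of any protein-coding gene and outside every such gene are described here. ZFR-1 is encoded by Y95B8A.8 in the nematode Caenorhabditis elegans. Members were peaks of the thresholded list of both replicates whose summit, the base of highest signal, was more than 1000 bp from every protein-coding 5′ end and outside the span of every protein-coding gene. Summits within 250 bp of a tRNA, snoRNA or snRNA gene were left out. In all 256 peaks were members, 15.1% of the list. Another 1061 peaks lay on the promoter side of the 1000 bp limit, 325 in gene bodies and 52 in distal sequence next to a small RNA gene.

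The study had 1 group of 2 biological replicates. Both were whole young adults of strain RW12277, 63 h old and synchronised by L1 starvation after bleaching. They carried the CRISPR insertion st12277, which fuses Y95B8A.8 to TY1, EGFP and 3xFLAG tags at its own locus, so every cell type that makes the protein contributed. Chromatin was precipitated with an antibody against GFP. No untagged animals were analysed here, so signal that does not need the tagged protein cannot be told apart from signal that does. The number of cells that bind at a site and the strength of binding per cell cannot be told apart in whole animals either.

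Sequence between genes can hold promoters of non-coding RNAs, enhancers, the regions where transcription ends, and mobile or tandemly repeated elements. Chromatin immunoprecipitation followed by sequencing finds where a protein lies near DNA, directly or through partners. In mammals, the related protein ZFR is known as a zinc finger protein that binds double-stranded RNA. C. elegans genes are closely packed, but 24.2% of the chromosomes' bases met the positional rule for members, and 31.2% did on X.

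The sequences below are shown because 12 of the 20 strongest members fell into a few families of related sequence. A comparison of the letters shows what the members of a family share. Ranks 306 and 541 are shown too but were not among those 20, and the third shared element had no member among them. Families were built, after the values had been seen, by aligning the 151 bases round each summit with blastn and joining members with an alignment of at least 50 bases. Coordinates are on ce11 and the letters are from the RefSeq reference. In the first pair, from different chromosomes, capitals mark the part aligned to rank 27, the family's query. In the next sequence they mark the whole window that served as the family's query, and in the one after it the part aligned to its family's query. In the array sequences they mark each TTCTAGAA.
First shared element, rank 65, chrII:4047989-4048099, plus strand: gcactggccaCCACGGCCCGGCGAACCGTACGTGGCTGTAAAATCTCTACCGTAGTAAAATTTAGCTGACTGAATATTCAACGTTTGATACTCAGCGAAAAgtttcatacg
First shared element, rank 306, chrIV:15530704-15530813, minus strand: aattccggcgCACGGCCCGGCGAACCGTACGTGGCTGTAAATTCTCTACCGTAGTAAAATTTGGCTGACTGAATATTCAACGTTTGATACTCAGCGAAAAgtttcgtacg
Second shared element, rank 11, chrIV:4727962-4728132, plus strand: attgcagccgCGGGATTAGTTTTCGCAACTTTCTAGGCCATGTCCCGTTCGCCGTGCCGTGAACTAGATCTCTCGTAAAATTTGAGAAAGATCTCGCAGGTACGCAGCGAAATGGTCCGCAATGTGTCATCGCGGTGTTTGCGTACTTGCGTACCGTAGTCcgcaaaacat
The third shared element, rank 541, chrV:15767551-15767731, plus strand: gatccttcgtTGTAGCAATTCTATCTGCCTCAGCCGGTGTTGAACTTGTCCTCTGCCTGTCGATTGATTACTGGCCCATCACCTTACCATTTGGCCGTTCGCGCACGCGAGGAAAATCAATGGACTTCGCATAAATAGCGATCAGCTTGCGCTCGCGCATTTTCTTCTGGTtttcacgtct
Array, rank 30, chrIV:15059288-15059388, plus strand: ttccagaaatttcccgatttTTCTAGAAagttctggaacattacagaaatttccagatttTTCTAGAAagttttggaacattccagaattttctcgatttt
Array, rank 51, chrX:2057942-2058042, plus strand: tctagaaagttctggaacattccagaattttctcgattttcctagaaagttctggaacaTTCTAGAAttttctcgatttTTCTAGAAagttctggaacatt

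The strongest member, rank 11 of the whole list, lay on the second shared element at 4728047 on chromosome IV. The pseudogene K08F11.6 lay within 250 bp of the summit. Members named below as at a non-coding gene likewise had it within 250 bp. The signal of rank 11, the peak caller's own value, was 373 in the list of both replicates, 202 in replicate 1 and 179 in replicate 2. Rank 17, on an array at 1375282 on chromosome X between fbxa-190 and F56C3.10, had a signal of 305, with 129 in replicate 1 and 171 in replicate 2. Ranks 23, 27 and 28 all lay on the first shared element. They stood between the nuclear transport genes imb-3 and xpo-2 on chromosome I, between Y116A8A.150 and map-2 on IV, and between zip-11 and F42A6.5 on IV. Their signals were 279, 263 and 262. All 20 members with the highest signal had a thresholded peak in both replicates, and 12 of the 20 belonged to a sequence family. Over all members, 39 of 256 (15.2%) belonged to 1 of 9 families, with a median signal of 105 against 73.7 for members in none. Of the 217 in none, 10 still had more than 1 exact genome copy at the summit, so they are members joined to no other member and not all of unique sequence.

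The 12 members of the largest family lay on tandem repeats of TTCTAGAA, with 2 to 10 copies inside each peak. Of the 12, 11 lay in an array of at least 5 copies, and rank 29 did not. This word matches the inverted repeat to which heat shock factor binds. Their windows were fully soft-masked, which means that the reference marks them as repeated or low-complexity sequence, and 8 of the 12 held bases with more than 1 exact copy in the genome. Their signals ran from 64.2 to 305 with a median of 170, and 8 had a thresholded peak in both replicates. Besides rank 17, those among the 20 strongest were rank 29, between dlc-4 and VY10G11R.1 on IV, and rank 30, at the ncRNA Y41E3.460 between Y41E3.13 and Y41E3.18 on IV. Also among them were rank 32, between srv-14 and Y105C5B.5 on IV, rank 51, between Y102A11A.1 and F49H12.7 on X, and rank 66, between Y105E8B.9 and ttm-5 on I. The signals of these 5 were 262, 260, 256, 229 and 207.

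Most arrays carried no listed peak. The genome held 118 arrays of at least 5 copies of TTCTAGAA with gaps of at most 100 bp, and 60.7% of neighbouring copies stood 40 bp apart. A listed peak overlapped 15 of the 118 (12.7%, Clopper-Pearson 95% interval 7.29 to 20.1%), and another 46 had only a peak of the ranked list. Of the 66 arrays whose centre met the distal rule, 9 had a listed peak (13.6%, 6.43 to 24.3%) and 29 only a ranked one. Arrays with a listed peak held 5 to 27 copies with a median of 13. Arrays without a listed peak held 5 to 192 with a median of 7, so the ranges overlapped. The longest array, with 192 copies on chromosome V, had a ranked peak with a signal of 291 and the top score of 1000 that was not in the thresholded list. These intervals and those below cover counting error only, and members that share sequence or lie side by side are not independent.

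The first shared element was also found outside the members. Its query sequence had 23 copies of at least 60 aligned bases in the genome, and 14 of them carried a listed peak, 5 of them members. Identity to the query ran from 75.3 to 100%, and rank 23 matched over 73 bases at 80.8%. The family's sixth member, rank 372, had no alignment of that length to the query. The signals of the 14 peaks ran from 80.1 to 437 with a median of 235.06, and 4 of the 14 were among the 12 strongest peaks of the whole list. Identical letters did not come with identical signal. A copy at 9196367 to 9196457 on IV, on the promoter side, matched the query without a mismatch and had a signal of 437. Another on V, from 19771001 to 19771090, also matched without a mismatch and had only a ranked peak with a signal of 22.5 and a score of 72. The second shared element had 8 copies, of which 4 carried a listed peak, all members, with signals from 129 to 373. Rank 374, also of that family and with a signal of 105, was on none of the 8 copies. The third shared element had 21 copies and 9 listed peaks, with signals from 60.02 to 103. These counts take peaks that overlap a copy, and not every summit lay on it. The summits of ranks 657, 1072 and 1244 lay outside their copy of the third element. The summit of rank 807 lay outside its copy of the first. A further family of 5 members matched the genome at 2745 places, and its signals ran from 56.3 to 84.9. Such copies can share reads that fit both places, and the sources used here do not say how the authors placed such reads.

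**Figure D1:**
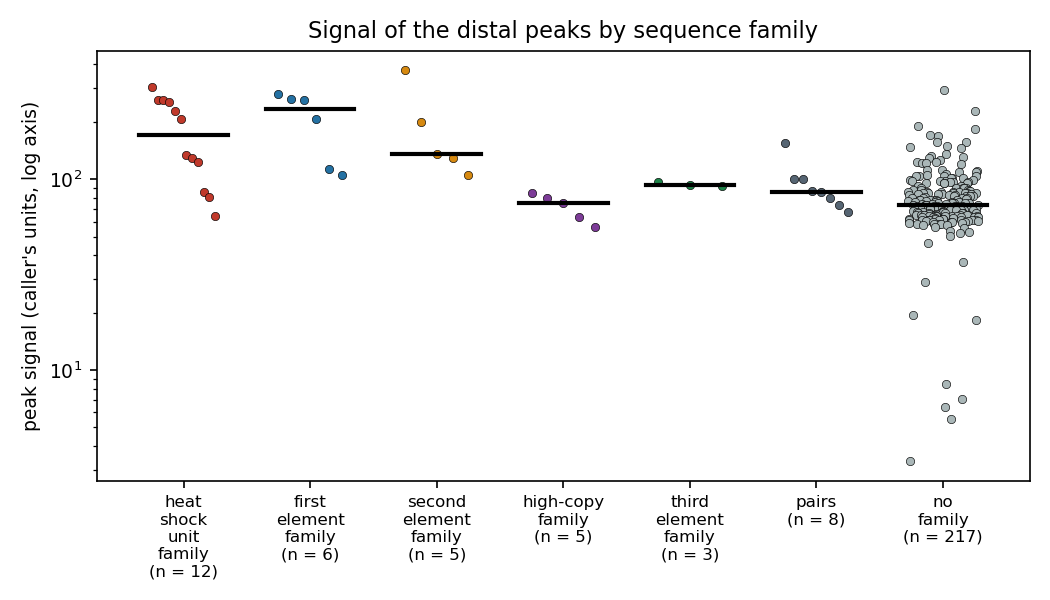
Peak signal of the 256 distal members on a log axis, in the peak caller's units, by the sequence family of each member. Points are members, the bar is the median, and the 12 members of the heat shock unit family and the 6 of the first element family have medians of 170 and 235.06, against 73.7 for the 217 joined to no family.

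Of the 20 strongest members, 8 belonged to no family. Rank 20, at 1504011 on X between F09E10.1 and toca-1, lay at tts-1, a long non-coding RNA known for its link to lifespan, with a signal of 293, 158 in replicate 1 and 125 in replicate 2. Rank 50 lay 36 bp past the 3′ end of klp-7, a microtubule-depolymerising kinesin, facing sca-1, the calcium pump of the endoplasmic reticulum, with a signal of 229. Rank 80 lay between T26G10.1 and T26G10.3 on III and rank 82 lay 34 bp past the 3′ end of gyg-2, which faces T25E12.6 on V. Their signals were 190 and 184. Rank 100 lay at the long intergenic RNA linc-128, between cutl-22 and the calmodulin gene cmd-1 on V, with a signal of 171. The last 3 were rank 107 between F46F11.1 and M01A12.4 on I, rank 127 between vab-19 and pqn-42 on II, and rank 131, 69 bp past the 3′ end of top-2, which encodes DNA topoisomerase II, and before ZK930.6. Their signals were 168, 157 and 156. The remaining family members of the 20 were rank 65 between K07D4.2 and gadr-4 on II and rank 73 between F40E3.3 and mage-1 on I, with signals of 208 and 199.

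The letters at 4 of these summits are shown because these members stood among the strongest with no family in common, so that their composition can be compared. None of the 4 holds TTCTAGAA, so they are in lower case throughout.
tts-1, rank 20, chrX:1503961-1504061, plus strand: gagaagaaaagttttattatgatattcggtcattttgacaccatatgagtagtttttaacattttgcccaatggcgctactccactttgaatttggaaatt
klp-7 3′ side, rank 50, chrIII:10810987-10811087, plus strand: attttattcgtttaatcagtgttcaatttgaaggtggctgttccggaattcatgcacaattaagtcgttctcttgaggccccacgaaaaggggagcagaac
gyg-2 3′ side, rank 82, chrV:16745025-16745125, plus strand: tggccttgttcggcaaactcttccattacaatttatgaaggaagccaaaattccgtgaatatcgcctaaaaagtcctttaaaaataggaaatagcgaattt
linc-128, rank 100, chrV:1151431-1151531, plus strand: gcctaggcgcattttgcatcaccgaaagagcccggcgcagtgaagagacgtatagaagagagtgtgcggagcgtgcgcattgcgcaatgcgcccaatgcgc

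Many members lay next to the 3′ ends of protein-coding genes. A summit lay within 250 bp of a 3′ end in 77 of 256 members (30.1%, 24.5 to 36.1%), against 6.53% of the bases that meet the positional rule. The share was not particular to the members. Of the 325 gene-body peaks, 102 (31.4%, 26.4 to 36.7%) lay within 250 bp of a 3′ end from the inside, against 7.57% of gene-body bases. Gaps between genes that point towards each other held 80 members (31.3%, 25.6 to 37.3%) and 15.5% of the bases. Gaps between genes that point apart held 45 (17.6%, 13.1 to 22.8%) and 30.7% of the bases. Within the tail-to-tail gaps, 52.5% of the members (41.0 to 63.8%) and 19.1% of the bases were within 250 bp of a 3′ end. In gaps between genes of the same direction the figures were 26.7% (19.4 to 35.2%) and 6.67%. Whether read mappability differs between these bases and the rest was not tested.

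Behind klp-7, gyg-2 and top-2, the strongest members within 250 bp of a 3′ end lay by klp-16, a kinesin, by cpg-1, an eggshell proteoglycan, by puf-11, a Pumilio-type RNA-binding protein, and by snrp-200, a spliceosomal helicase. Rank 163 lay 39 bp from klp-16 with a signal of 147, 81.5 in replicate 1 and 63.3 in replicate 2. Rank 228 lay 37 bp from cpg-1 with a signal of 129, 69.2 in replicate 1 and 62.4 in replicate 2. Rank 256 lay 45 bp from puf-11 with a signal of 122, 66.2 in replicate 1 and 51.3 in replicate 2. These 3 were higher in replicate 1, while snrp-200, at 54.1 and 59.7, and gyg-2, at 72.5 and 98.6, were higher in replicate 2, on scales that belong to separate lists. The 77 members near a 3′ end had a median signal of 74.9 and the other 179 one of 77.2, with overlapping ranges of 5.56 to 229 and 3.34 to 373. A thresholded peak in both replicates was found for 23.4% (14.5 to 34.4%) and 21.2% (15.5 to 28.0%). Only 2 of the 77 had more than 1 exact genome copy, against 22 of the 179.

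**Figure D2:**
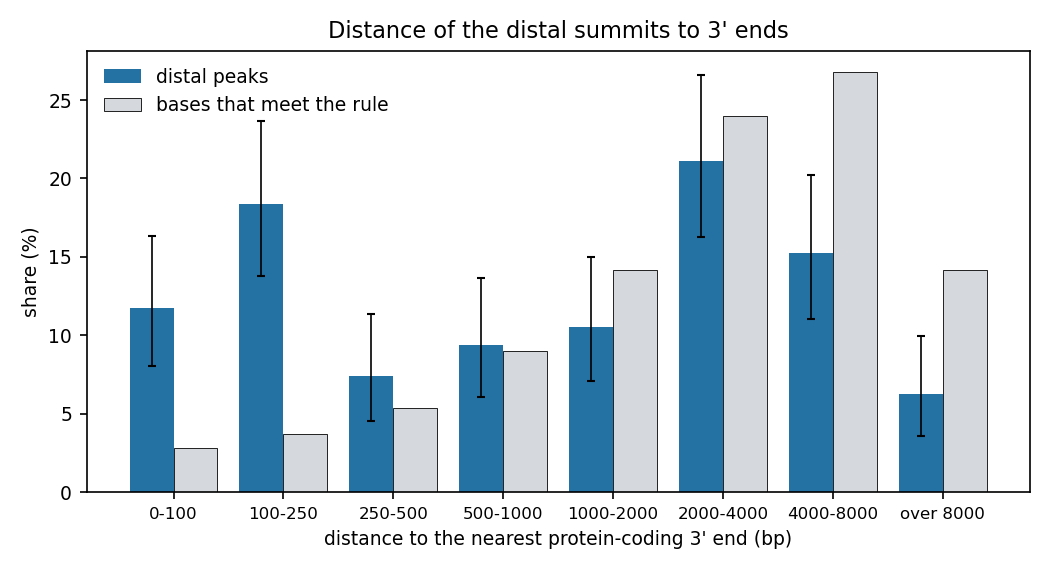
Share of the 256 distal summits and of the bases that meet the positional rule, in percent, by distance in bp to the nearest protein-coding 3′ end, with Clopper-Pearson 95% intervals. Up to 100 bp the shares are 11.7% and 2.80%, from 100 to 250 bp they are 18.4% and 3.72%, and from 4000 to 8000 bp the order is turned, at 15.2% and 26.8%.

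The distance from a member to the nearest 5′ end ran from 1011 to 13456 bp with a median of 2438 bp, against 2759 bp for the eligible bases. The 3 members just inside the limit lay 1011, 1018 and 1018 bp from a 5′ end, at ranks 1298, 541 and 923, with signals of 64.9, 92.9 and 75.8. The 3 peaks outside gene spans that the distance alone excluded, taken nearest the limit, lay at 989, 977 and 964 bp, at ranks 1068, 395 and 545, with signals of 71.4, 103 and 92.7.

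Most members had no annotated non-coding neighbour. Of the 256, 208 (81.3%) had no ncRNA, piRNA, lincRNA, antisense RNA, miRNA, rRNA gene or pseudogene within 250 bp, as had 73.9% of eligible bases. An ncRNA gene lay that close for 28 members (10.9%, 7.39 to 15.4%) and 5.58% of bases, but for 15.6% of other peaks. A pseudogene lay that close for 14 members (5.47%, 3.02 to 9.01%), 13.4% of bases and 1.04% of other peaks. The order against other peaks was thus the reverse of that against bases for both kinds. Genes of piRNAs, the small RNAs that guard the germ line, were near 1 member (0.391%, 0.00989 to 2.16%) and 6.83% of bases.

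Members stood in 7 runs of at least 3 within 10000 bp, with every listed summit counted, also where intervals overlap. The largest run held 5 members over 2658 bp on X, at the ncRNA C30E1.9 between C30E1.4 and F52G3.8. Its signals ran from 85.5 to 155, and 4 of the 5 had a thresholded peak in both replicates. Rank 135 and rank 336 there are 2 summits of the same listed interval, so the 256 members were 255 distinct intervals. Some of these intervals overlap, as at ranks 1024 and 1665 on II, which were matched to the same peak in each replicate. Members within 1000 bp of each other formed 240 groups. A run of 3 members on X, with ranks 238 and 907 at the ncRNA W05H9.3, lay between got-2.2 and W05H9.4 with signals of 76.3 to 127. On V, 3 members lay between lpin-1 and letm-1, with rank 424 at the ncRNA H37A05.6 and signals of 61.9 to 101. On III, 4 members between asna-1 and lin-9, 3 of them at the pseudogene ZK637.6, had signals of 7.06 to 76.3. None of the 4 had a thresholded peak in both replicates. Ranks 1553 and 1671 of this run have overlapping intervals, and the lowest signal is that of rank 1671. The other runs of 3 lay between ins-17 and atf-7 on III, between Y110A2AR.1 and ZK355.2 on II, and between C01G6.4 and mtrr-1 on II. In the ins-17 run, ranks 1243 and 1676 have overlapping intervals. In the Y110A2AR.1 run, ranks 1443 and 1690 have summits at 2922579 and 2922791. Both runs reach 3 only with such close summits counted apart.

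Words were compared next. Every 6-base word was compared between the 101 bases round the summits and equal windows centred 250 bp to 1 side, over the whole list, by a two-sided exact McNemar test with Benjamini-Hochberg adjustment over 2080 words. A word was called when peaks of odd and of even rank both passed 0.05 in the same direction. The test takes peaks as independent. Peaks that overlap or share sequence can fall in both sets of ranks, so the sets are not independent of each other. The call was made for 281 words (13.5%), 178 higher and 103 lower at the summits. Most of the higher words held more G and C than A and T, and the lower words were mostly A and T. The comparison did not adjust for base composition, and whether the calls go beyond a difference in composition was not tested. The 6 named words have the highest summit-to-flank ratio among called words found in at least 10% of members, so their member shares are high by selection. Over all called words, 23 had a higher ratio than the leading named word. GCGCGC, at 144 peaks against 15, was in 5.08% of member summits and 9.11% of other summits. Of the named words, ACGCAG had the highest ratio, at 194 peaks against 39 (exact McNemar, adjusted p 1.3e-09 in odd and 6.4e-14 in even ranks). Among members it was in 35 summit windows (13.7%) and 3 flanks (1.17%), and in 11.1% of other summits. Words that overlap it or each other behaved alike, with AGACGC in 28 member summits against 6 flanks and GACGCA in 29 against 1. CGCAGA was in 31 against 7, while the word CGTCTC was in 35 against 6. The unrelated GCACAC was in 26 member summits and 5 flanks.

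Reverse complements of 3 of the overlapping words join to CTGCGTCT, which was put together after the words had been seen and so is a description. It was in 21 of 256 members (8.20%, 5.15 to 12.3%), in 0 of 256 flanks, in 4.73% of other summits (3.69 to 5.96%) and in 0.565% of eligible windows, on either strand. In 13 of the 21 it was centred within 25 bp of the summit. All 21 had single-copy sequence at the summit, and their signals ran from 58.4 to 124. The letters of 4 of the stronger ones are shown on the strand that reads the word, in capitals, to let its surroundings be compared.
Rank 249, chrIII:6606298-6606337, plus strand: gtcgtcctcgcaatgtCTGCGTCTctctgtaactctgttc
Rank 341, chrII:2920918-2920957, plus strand: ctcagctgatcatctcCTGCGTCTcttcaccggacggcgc
Rank 390, chrV:16356063-16356102, plus strand: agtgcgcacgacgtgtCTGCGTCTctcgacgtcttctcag
Rank 455, chrX:806676-806715, plus strand: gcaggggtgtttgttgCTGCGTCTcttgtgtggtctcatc

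Motifs listed from general knowledge were counted in the same windows. GAGAGA was in 43 members (16.8%, 12.4 to 22.0%), 8.20% of flanks and 5.35% of eligible windows. CACGTG, the E-box bound by helix-loop-helix factors, was in 15 members (5.86%, 3.32 to 9.48%), 1.56% of flanks and 1.38% of windows. In other peaks the summit shares were 11.9% and 3.13%. GTTCNANNC, the B box of RNA polymerase III genes, was in 5.86% of members, with an interval of 3.32 to 9.48% that held the 3.34% of windows, in 2.73% of flanks and in 8.97% of other summits. TGATAA was in 10.5% of members (7.07 to 15.0%), 10.2% of flanks and 5.35% of other summits (4.25 to 6.65%). TATAAA was in 7.81% of members, 10.2% of flanks and 5.84% of other summits. CTGTTTCA was in 0.391%, 1.17% and 0.278%. All motifs were searched on both strands, and no match says only that these letters are not in the window.

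Repeats took a larger share of members than of other peaks. The 101 bases round the summit were fully soft-masked in 28 members (10.9%, 7.39 to 15.4%), in 1.46% of other peaks (0.906 to 2.22%) and in 6.94% of eligible windows. Over bases rather than windows the order differed, with a mean of 29.4% masked in member windows and 40.4% of eligible bases. More than 1 exact copy of the 50 bases at the summit was found for 24 members (9.38%, 6.10 to 13.6%) and 5.56% of other peaks (4.44 to 6.88%). It was not particular to the members, with 9.23% in gene bodies (6.31 to 12.9%) and 3.20% on the promoter side (2.23 to 4.45%). Among distal peaks next to small RNA genes that share was 30.8% (18.7 to 45.1%).

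Members were about as well supported by the single replicates as other peaks. A thresholded peak of replicate 1 overlapped 100 members (39.1%) and 40.3% of all peaks. For replicate 2 it was 91 members (35.5%) and 37.3% of all. Both replicates had one for 56 members (21.9%, 17.0 to 27.4%) and 23.4% of all, and neither for 121 members (47.3%) and 45.8%. The conservative list overlapped 186 members (72.7%, 66.8 to 78.0%) and 77.3% of all. Support went with signal. Of the 64 members with the highest signal, from 97.3 to 373, 46 had a peak in both replicates, and of the 64 with the lowest, from 3.34 to 64.9, 2 did. In the ranked lists, 250 members had a peak in both replicates, and across these sites Spearman's rho between the replicate signals was 0.33 and Pearson's r of the log2 values 0.53. The same sites share their base composition and copy number in both libraries.

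**Figure D3:**
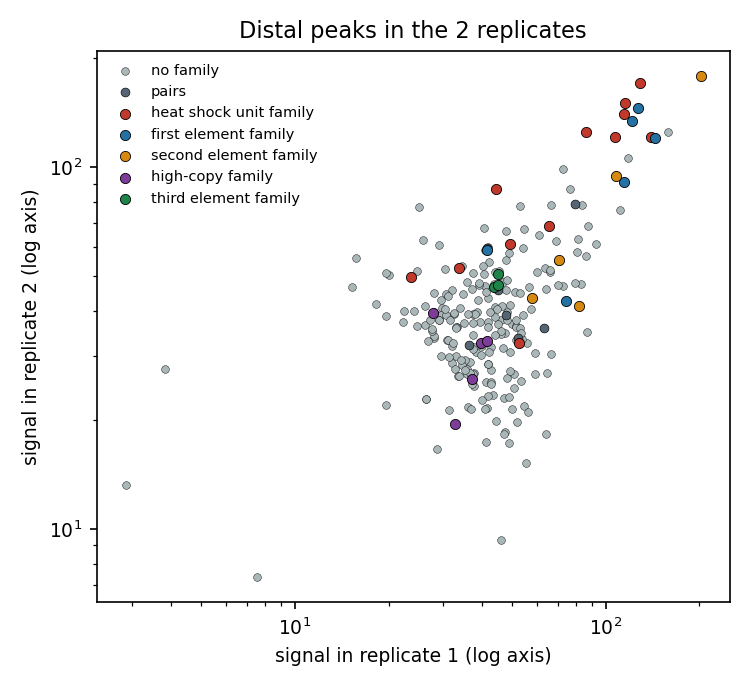
Signal of the 250 distal members found in both ranked lists, replicate 1 against replicate 2, on log axes in the caller's units. Points are members, coloured by sequence family, and the members above 100 in both replicates are mostly those of the heat shock unit family and the element families.

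The median signal of the members was 76.8, with quartiles of 65.1 and 97.2. It was 80.6 on the promoter side, 73.2 in gene bodies and 83.0 next to small RNA genes, and the ranges overlapped throughout. Among the 50 strongest peaks of the list, 10 were members (20%, 10.03 to 33.7%), and among the first 200, 25 (12.5%, 8.26 to 17.9%).

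Chromosome X had the fewest members per base open to them. It held 43 members in 5.53 Mb of eligible sequence, or 7.78 per Mb, and the autosomes held 213 in 18.8 Mb, or 11.4 per Mb. The ratio was 0.685. For other peaks, counted over the remaining sequence, X had 9.43 per Mb and the autosomes 20.7, a ratio of 0.455. By share, X held 16.8% of members (12.4 to 22.0%), 22.8% of eligible bases and 8.00% of other peaks (6.65 to 9.52%). Members were densest on I and III, at 13.9 per Mb on each. In the middle 50% of the autosomes lay 53.1% of members (46.1 to 59.9%), 46.5% of eligible bases and 62.7% of other peaks (60.1 to 65.3%). On X the middle held 14 of 43 members (32.6%, 19.1 to 48.5%), 43.9% of eligible bases and 58.3% of other peaks (48.7 to 67.4%).

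**Figure D4:**
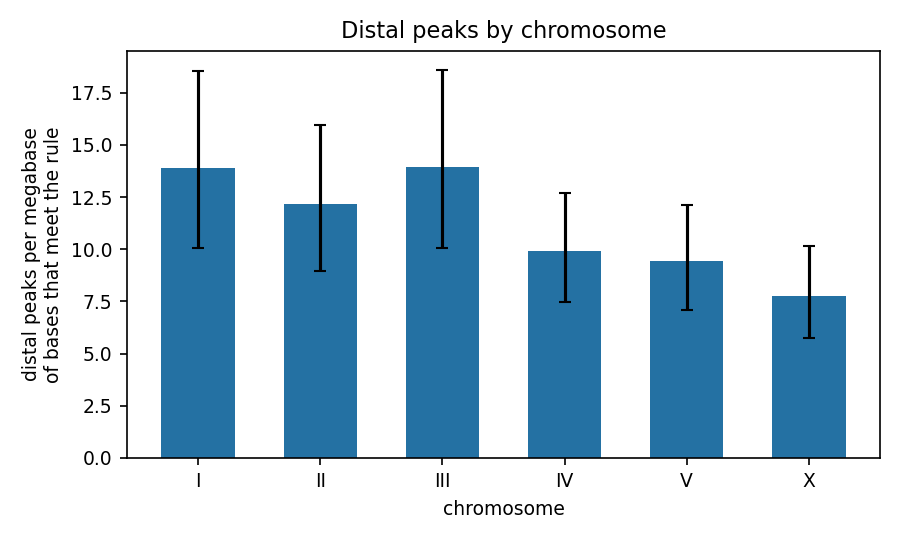
Distal members per megabase of bases that meet the positional rule, by chromosome, with Clopper-Pearson 95% intervals of each chromosome's share of the 256 members put on the same scale. X is lowest at 7.78 per Mb and its interval, 5.76 to 10.2 per Mb, overlaps that of every other chromosome, if barely for I and III.

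Few ranked peaks passed the threshold, whether distal or not. Of 18050 ranked peaks with a distal summit, 256 were in the thresholded list (1.42%, 1.25 to 1.602%), against 1.78% of all 95095 ranked peaks. The share was 2.53% on the promoter side (2.38 to 2.68%) and 0.934% in gene bodies (0.836 to 1.04%). Next to small RNA genes it was highest, at 52 of 270 (19.3%, 14.7 to 24.5%). A score of at least 830 without a place in the list was found for 73 ranked peaks, and 63 of them were distal. With these counted in, the distal share was 1.77%, and over all classes 1767 of the 95095 ranked peaks reached that score. Of these 63, 44 had fully soft-masked windows. An array of TTCTAGAA overlapped 7 of the 63, and for all 7 it was the longest array, with 192 copies on V. Their signals ran from 24.3 to 1947 with a median of 120, and 3 were above the strongest member. The strongest lay on X at 15811107, between Y7A5A.7 and Y7A5A.8. The sources used here do not say which step kept them out of the list.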

How the data were processed

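Chromatin immunoprecipitation peaks of 2 biological replicates in 1 group were analysed as the authors deposited them on ce11, per the file headers. Each deposited list gives a signal per peak, the caller's own value, and a score computed from the IDR (irreproducible discovery rate), which rates how well peak ranks repeat between calls. The deposited ranked lists also hold the −log10 of that rate. Other deposited values are summit offsets. A control alignment was used, per the file headers. Aligner and caller: not given in the sources used here. Depth is unknown because the files are peak lists, and no signal therefore has an interval.

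Summits were placed on Ensembl WBcel235 release 115 with 5′ ends of protein-coding transcripts, and RefSeq gave gene names missing there and soft-masked sequence. Peaks overlapping by at least 1 bp counted as shared. A replicate's signal is that of its overlapping ranked peak with the nearest summit. Shares carry Clopper-Pearson 95% intervals. Only the word comparison is a test. Nothing says whether the biological replicates came from separate cultures. Python 3.11.15, SciPy 1.17.1 and blastn 2.17.0 were used, blastn with an E-value limit of 1e-05. Named items were the 20 strongest members, those nearest the 1000 bp limit, runs of 3 or more and 6 words. Sequence families, arrays, the joined word and the list of members by 3′ ends were added after values were seen, and the members and lists were chosen with earlier results of these data known. Sequences are shown for a selection.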

Additional observations from a re-analysis of the deposited data

How the results depend on the processing

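The distance to a 5′ end set the size of the distal set. At 500 bp it was 21.9% of the list, and at 2000 bp it was 156 peaks or 9.21%, with 14.1% in sequence of more than 1 genome copy and 23.7% within 250 bp of a 3′ end. The upper part of the list by signal held 120 members, of which 45% had a peak in both replicates. Leaving out a replicate, by using the other's own list, gave 93 to 104 members or 13.9 to 14.2% of the list. It gave 17.2 to 20.2% on X, 11.5 to 13.98% near an ncRNA gene and 12.5 to 19.4% in multicopy sequence. It gave 29.0 to 32.7% near a 3′ end, 33.3 to 36.5% in tail-to-tail gaps and 82 to 92 called words. A window of 25 bp to each side gave 121 called words. A score of at least 830 raised the share of distal candidates past the threshold to 1.77%. The causes were not tested. The alternatives for 3′ ends and gap direction were added after the data were seen, and in single-copy summits alone the shares were 32.3% and 30.6%. No paired analysis was possible because there was 1 group. Peak lists give no depth, so a site without a listed peak is not shown to be unbound.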
